A study of Mus musculus with 24 samples.

Results

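The 10 genes described here encode motor proteins and core subunits of the complexes that move nucleosomes in mouse oocytes: Smarca4, Smarcc1, Smarcb1, Arid1a and Arid1b of the BAF complex, Smarca5 of the ISWI complexes, the CHD family genes Chd1, Chd4 and Chd8, and Ino80. They were chosen by name, and all 10 were found, with 1 row each, among the 16572 gene names of the deposited RNA-seq table. The oocytes came from ovaries of C57BL/6 Barb mice aged 7 days (the strain as labelled; the study's methods describe a cross with an SV129 background) and were grown outside the follicle to class IV, the largest size class, which the labels give as 60 to 70 µm across. The study's text describes the oocytes collected at 20% O2 as somewhat smaller, so size may also differ between the conditions. One condition was grown in 5% O2 for 9 days (IV 5% O2 oocytes) and the other in 20% O2 for 14 days (IV 20% O2 oocytes). Per the study's methods, the medium was also changed more often at 5% O2. Oxygen, culture time, changes of medium and any such difference in size therefore cannot be told apart. Each condition had 2 libraries of total RNA that had been depleted of ribosomal RNA, but the table holds 1 pooled value per condition. No SD or p-value can therefore be given, and every interval below is a 95% interval for counting error only, on reads without molecular identifiers.

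Nucleosome remodellers are machines with an ATPase motor that pulls DNA along the histone octamer. BAF slides or evicts nucleosomes and keeps regulatory DNA open, ISWI spaces nucleosomes into regular arrays, CHD proteins act during transcription or, with histone deacetylases, in the repressive NuRD complex, and INO80 handles nucleosomes that carry the variant H2A.Z. In growing oocytes these complexes are part of the maternal supply, and Smarca4 is known as a maternal-effect gene whose product is needed in the early embryo.

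Levels were read as RPM, the reads of a gene scaled to the sequencing depth of its condition. In these values 1 read stood at 0.00757 RPM in IV 5% O2 oocytes and at 0.0245 RPM in IV 20% O2 oocytes. These steps correspond to depths of 132185258 reads (IV 5% O2 oocytes) and 40875359 reads (IV 20% O2 oocytes). The genes of the columns held fewer reads, 109629353 (IV 5% O2 oocytes) and 29754908 (IV 20% O2 oocytes). A gene with no reads could have up to 3 reads, or 0.0227 and 0.0734 RPM. Each of the 10 genes had between 1419 and 34814 reads per column, so counting error was small for all of them. All 8 oocyte markers checked (such as Gdf9, Bmp15 and Ddx4) were present, between 120 and 2805 RPM. They summed to 5848 RPM in IV 5% O2 oocytes and to 7219 RPM in IV 20% O2 oocytes. Of the 8, 3 were higher in IV 5% O2 oocytes, against 62.6% of all genes that averaged 1 RPM or more over the columns. Among the oocyte markers, Kit (148 and 448 RPM) and Zp3 (690 and 1501 RPM) were more than 2-fold lower in IV 5% O2 oocytes. Their log2 differences were -1.59 and -1.12, and Nobox was higher, at 0.87. Markers of theca and stroma summed to 25.8 RPM in IV 5% O2 oocytes and to 2.30 RPM in IV 20% O2 oocytes. Of these 5, 5 were higher in IV 5% O2 oocytes, against the same 62.6% of all genes. In IV 5% O2 oocytes most of the theca and stroma sum was Cyp11a1, at 16.4 RPM, against 0.122 RPM in IV 20% O2 oocytes. In IV 20% O2 oocytes most of it was Star, at 1.86 RPM. Without Cyp11a1 the sums were 9.33 and 2.18 RPM. Of these markers, Col1a2 and Vim lacked any read in IV 20% O2 oocytes, and Cyp17a1, Col1a1 and Acta2 are not among the rows used here. Granulosa markers, 6 of 8 in the table, summed to 41.3 and 29.8 RPM. Of the 6, 5 were higher in IV 5% O2 oocytes, again against 62.6% of all genes. Without Nr5a2, the granulosa marker with the most reads, the sums were 22.6 and 12.2 RPM. Fshr was at no reads in IV 5% O2 oocytes and Inha at none in IV 20% O2 oocytes. Col1a2, Pdgfra, Fshr and Inha were each under 1 RPM in both conditions. The 2 of 4 macrophage markers in the table summed to 16.5 and 21.1 RPM. The part of such cells in the results was not tested, and in pooled RNA fewer cells of a type and less RNA per cell cannot be told apart.

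Each difference is the log2(RPM + 1) of the 5% O2 column minus that of the 20% O2 column. Of the 10 genes, 5 were higher in IV 5% O2 oocytes, against 62.6% of all 14704 genes that averaged 1 RPM or more over the columns, and 5 were lower, against 37.4%. Their median difference was 0.04, and that of all genes tested was 0.26. A difference of at least 2-fold upward was seen for 1 of the 10 (Chd1, 10%), against 18.7% of all genes tested, and a difference of at least 2-fold downward for 0 of 10, against 9.22%. The other 9 lay under 2-fold, as did 72.1% of all genes. Relative to the median gene, which by construction splits all genes evenly, 4 of the 10 were higher and 6 lower. Scaling the columns by their median ratio moved the median gene to -0.03 and quantile normalization moved it to 0.06, and both took Chd1 under 2-fold. Median-ratio scaling also put Arid1a, at -1.07, past 2-fold downward. The split of all genes at least 2-fold apart moved with them, from 67.0% higher to 46.7% and 49.6%. Because 1 pooled value per condition carries no replicate error, none of these differences has been shown to exceed the spread between cultures.

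**Figure D1:**
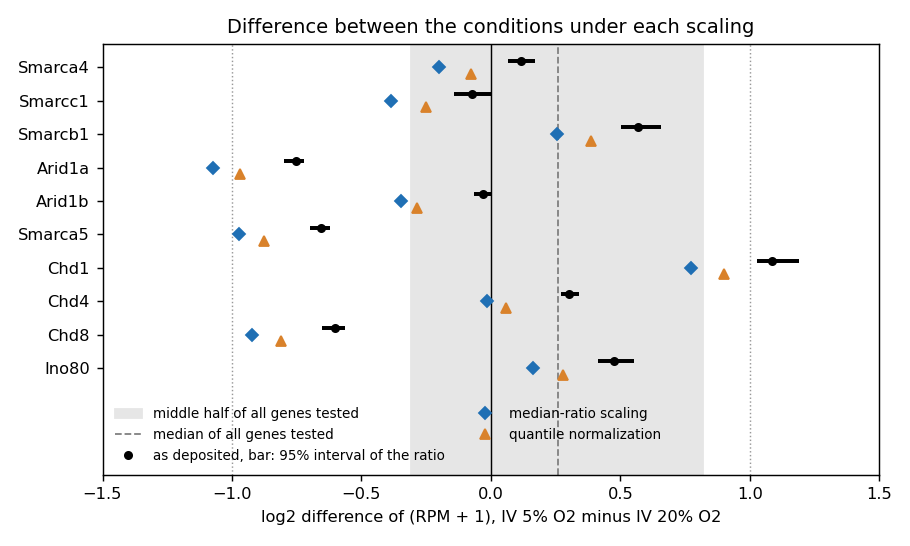
Difference of each remodeller gene between IV 5% O2 oocytes and IV 20% O2 oocytes on the log2(RPM + 1) scale (x axis), as deposited (black points; bars give the 95% counting interval of the ratio without a pseudocount), with median-ratio scaling (diamonds) and with quantile normalization (triangles). The grey band runs from -0.31 to 0.82, the quartiles of all genes tested, and dotted lines mark 2-fold; Arid1a, Smarca5 and Chd8 sit to its left and Chd1 to its right as deposited.

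In the BAF complex, the DNA-binding subunit Arid1a was the member that differed most, while its alternative Arid1b was nearly level as deposited. Arid1a (GRCm38 chromosome 4, 133679008 to 133756769, minus strand) stood at 123 RPM in IV 5% O2 oocytes (16300 reads) and 209 RPM in IV 20% O2 oocytes (8533 reads). It was thus 1.69-fold higher in IV 20% O2 oocytes, with a log2 difference of -0.75 (interval of the ratio -0.80 to -0.72). Among all genes tested, 13.0% had a lower difference than Arid1a. Arid1b (chromosome 17, 4994332 to 5347656, plus strand) stood at 222 RPM in IV 5% O2 oocytes and 226 RPM in IV 20% O2 oocytes. Its log2 difference of -0.03 (interval -0.06 to 0.00307) was the only one of the 10 whose counting interval held 0. Arid1b was at -0.35 under median-ratio scaling and at -0.29 under quantile normalization.

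The BAF motor Smarca4, also called Brg1, and the scaffold subunit Smarcc1 differed little as deposited. Smarca4 (chromosome 9, 21616169 to 21704230) had 101 RPM in IV 5% O2 oocytes and 93.3 RPM in IV 20% O2 oocytes. The log2 difference of 0.12 (interval 0.06 to 0.17) was instead -0.20 under median-ratio scaling and -0.08 under quantile normalization, so no direction can be given for it. Smarcc1 (chromosome 9, 110117708 to 110240178) stood at 49.2 and 51.8 RPM and differed by -0.07 on the log2 scale (interval -0.14 to -0.00164), and was lower in IV 5% O2 oocytes with each scaling tried. Smarcb1, the small core subunit that contacts the nucleosome surface, went the other way. It lies on chromosome 10 from 75896769 to 75921617 and had 58.7 RPM in IV 5% O2 oocytes (7754 reads) against 39.3 RPM in IV 20% O2 oocytes (1605 reads). That is 1.49-fold higher in IV 5% O2 oocytes, a log2 difference of 0.57 (interval 0.50 to 0.66) that was 0.25 with median-ratio scaling. Subunits of 1 complex thus went in both directions, with Arid1a at 0.59 times and Smarcb1 at 1.49 times its IV 20% O2 oocytes level.

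Smarca5, also called Snf2h, is the motor of most ISWI complexes and was, like Arid1a, lower in IV 5% O2 oocytes with each scaling. On chromosome 8 from 80698507 to 80739497, it had 113 RPM in IV 5% O2 oocytes (14938 reads) and 179 RPM in IV 20% O2 oocytes (7300 reads). The log2 difference was -0.66 (interval -0.70 to -0.62), or 1.58-fold higher in IV 20% O2 oocytes. This value is less certain than the others: 24.6% of its exonic windows of 50 bases and 6.10% of those of 100 bases, the read length, occur elsewhere in the genome. For the other 9 genes the highest shares are 3.67% (50 bases) and 0.963% (100 bases), both in Smarcb1. Of the exonic bases of Smarca5, 3.61% also overlap Gm45872 on the same strand. Gm45872 had 6.63 RPM in IV 5% O2 oocytes and 16.3 RPM in IV 20% O2 oocytes.

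Among the CHD genes, Chd1 and Chd8 stood at opposite ends. Chd1 encodes a motor that travels with elongating RNA polymerase and is linked to open chromatin in embryonic stem cells. It lies on chromosome 17 from 15704967 to 15772610 and had 74.8 RPM in IV 5% O2 oocytes (9892 reads) and 34.7 RPM in IV 20% O2 oocytes (1419 reads). This 2.16-fold higher level in IV 5% O2 oocytes is a log2 difference of 1.09 (interval 1.03 to 1.19), which was 0.77 under median-ratio scaling and 0.90 under quantile normalization. Chd1 was higher in IV 5% O2 oocytes with each scaling, and 83.8% of all genes tested had a lower difference. Chd8, a motor that binds beta-catenin and represses its targets, lies on chromosome 14 from 52198151 to 52257780. It had 101 RPM in IV 5% O2 oocytes (13367 reads) and 154 RPM in IV 20% O2 oocytes (6303 reads), a log2 difference of -0.60 (interval -0.65 to -0.57). Of its exonic bases, 5.77% overlap the antisense gene Gm26590, which had 14.9 and 15.1 RPM. Chd4, the motor of NuRD, had 263 RPM in IV 5% O2 oocytes against 213 RPM in IV 20% O2 oocytes. On chromosome 6 from 125095981 to 125130591, it differed by 0.30 (interval 0.27 to 0.34), only 0.04 above the median gene, and median-ratio scaling turned its difference to -0.02.

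Ino80, the motor of the complex of the same name, lies on chromosome 2 from 119373042 to 119477687. It had 69.5 RPM in IV 5% O2 oocytes (9182 reads) and 49.7 RPM in IV 20% O2 oocytes (2031 reads), or 1.40-fold more in IV 5% O2 oocytes. Its log2 difference of 0.48 (interval 0.41 to 0.55) stayed positive with median-ratio scaling, at 0.16, and with quantile normalization, at 0.28. Of the 6 motors, Chd1 and Ino80 were thus higher and Smarca5 and Chd8 lower in IV 5% O2 oocytes with each scaling, while Smarca4 and Chd4 changed sign. Over all 10 genes, 8 kept their direction under the 3 scalings. The same share over all genes was not computed, so this count is a description only.

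Ratios between the genes do not depend on any single factor that scales a whole column, although quantile normalization, which is not of that kind, can alter them. Of the 45 pairs that the 10 genes form, 12 (26.7%) had a ratio at least 2-fold different between the conditions. Over all pairs of the genes tested with reads in both columns the share was 51%. The 45 pairs share 10 genes and those of all genes include genes with few reads, so the shares are given as a description, with no test of their difference. The widest was Chd1 to Arid1a, whose ratio was 3.65-fold higher in IV 5% O2 oocytes, followed by Chd1 to Smarca5 at 3.41-fold and Chd1 to Chd8 at 3.29-fold. In every one of the 12 pairs, the gene that gained was Chd1, Smarcb1, Ino80 or Chd4. Summed over the 10 genes, the level was 1176 RPM in IV 5% O2 oocytes and 1250 RPM in IV 20% O2 oocytes.

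Differences were also read by class of transcript length, although over 14692 genes with a length the difference and the length had a Spearman's rho of -0.00618, given as a description across genes. Among all genes tested, those with a longest annotated transcript of 8 kb or more had a median log2 difference of 0.02, and those of 6 to 8 kb of 0.09, against 0.26 for 4 to 6 kb, 0.34 for 2 to 4 kb and 0.22 for genes under 2 kb. Arid1a, Arid1b and Chd8 are in the longest class, Smarcc1 is in that of 4 to 6 kb, and the other 6 genes are in that of 6 to 8 kb. Relative to the median of their own class, Arid1a was at -0.78, Smarca5 at -0.75 and Chd8 at -0.63, while Chd1 was at 0.99, Smarcb1 at 0.47 and Ino80 at 0.38. The part of length in these results was not tested.

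Levels can be ordered between genes only per kb of exon. On that scale Chd4 led in both conditions, at 32.8 RPM per kb in IV 5% O2 oocytes and 26.6 RPM per kb in IV 20% O2 oocytes. In IV 5% O2 oocytes it was followed by Arid1b (17.6 RPM per kb), Smarca4 (15.6), Smarca5 (14.5), Arid1a (10.7), Ino80 (10.2), Chd1 (8.58), Smarcb1 (7.40), Smarcc1 (6.29) and Chd8 (6.12). The last pair did not differ beyond counting error. In IV 20% O2 oocytes the order after Chd4 was Smarca5 (23.0 RPM per kb), Arid1a (18.2), Arid1b (18.0), Smarca4 (14.4), Chd8 (9.33), Ino80 (7.30), Smarcc1 (6.61), Smarcb1 (4.95) and Chd1 (3.98). There Arid1a and Arid1b did not differ beyond counting error. With this length Chd1 held rank 10 in IV 20% O2 oocytes and rank 7 in IV 5% O2 oocytes, and Chd8 held ranks 6 and 10.

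**Figure D2:**
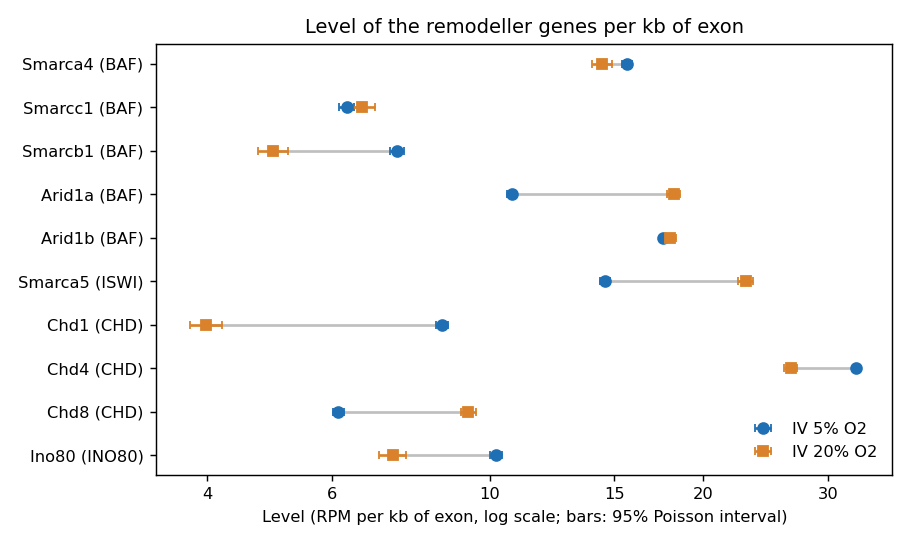
Level of each remodeller gene in RPM per kb of exon (x axis, log scale) in IV 5% O2 oocytes (circles) and IV 20% O2 oocytes (squares), with exact 95% Poisson intervals for counting error and a grey line joining the conditions. Chd1 shows the widest gap, from 3.98 to 8.58 RPM per kb, and Arid1b and Smarcc1 have nearly overlapping points.

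This order rests on the union of all annotated exons. For Smarcb1 that union is 7930 bases long, whereas its transcript with the longest coding sequence has 1660 bases. Divided by the latter, Smarcb1 had 35.3 RPM per kb in IV 5% O2 oocytes and 23.7 RPM per kb in IV 20% O2 oocytes and ranked 2 and 5 of 10. With that length Chd1 held ranks 10 (IV 20% O2 oocytes) and 9 (IV 5% O2 oocytes) and Chd8 ranks 6 and 7, so their moves in the order nearly vanished, while Chd4 stayed at rank 1 in both conditions.

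Several of the 10 have a close paralogue, which in some pairs takes the same place in a complex. The ratio of such paralogues, taken without a pseudocount, is also free of any single factor per column. Before these ratios are read, the coding sequences show how far reads of 100 bases can tell the partners apart. The longest identical run was 20 to 35 bases in the 7 pairs compared, well short of a read. The longest and the next longest are shown from the GRCm38 coding sequence (spliced, coding strand), with the shared run in capitals and the bases beside it in lower case.
Chd4: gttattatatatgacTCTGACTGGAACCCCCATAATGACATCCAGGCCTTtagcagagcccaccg
Chd3: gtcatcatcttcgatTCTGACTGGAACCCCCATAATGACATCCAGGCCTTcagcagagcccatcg
Arid1a: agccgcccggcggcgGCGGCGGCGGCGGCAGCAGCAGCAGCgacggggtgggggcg
Arid1b: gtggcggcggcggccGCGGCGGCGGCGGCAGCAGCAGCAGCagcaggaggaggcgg
Smarcc1: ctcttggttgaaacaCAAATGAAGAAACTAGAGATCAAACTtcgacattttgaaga
Smarcc2: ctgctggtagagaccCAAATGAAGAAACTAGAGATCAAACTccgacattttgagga
The run of 35 bases in Chd4 spans 2 exons between 125113560 and 125113904 of chromosome 6, and that in Chd3 spans 2 exons between 69353891 and 69354091 of chromosome 11. The run of 26 bases in Arid1a (chromosome 4, 133753222 to 133753247, minus strand) and Arid1b (chromosome 17, 4995971 to 4995996, plus strand) is a repeat of GCG and GCA triplets. That of Smarcc1 (chromosome 9, 110213569 to 110213594) and Smarcc2 (chromosome 10, 128485620 to 128485645) has the same length, and the other 4 pairs share at most 23 bases. No window of 100 bases in the exons of the 10 genes' partners Smarca2, Smarcc2, Chd2, Chd3, Chd7 and Smarca1 was repeated in the genome.

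Arid1a and Arid1b are mutually exclusive, so each BAF complex holds only one of them. Of the sum of both per kb of exon, Arid1a made up 50.3% in IV 20% O2 oocytes and 37.9% in IV 5% O2 oocytes. The ratio of Arid1a to Arid1b was 1.66-fold higher in IV 20% O2 oocytes, a log2 change of -0.73 (interval -0.78 to -0.68). Its share was 56.1% and 43.5% per kb of the longest transcript and 45.2% and 33.2% per kb of the transcript with the longest coding sequence, so which of them led in IV 20% O2 oocytes depends on the length used. Smarca4 and Smarca2, also called Brm, are likewise alternative motors of BAF. Smarca2 had 99.9 RPM in IV 5% O2 oocytes (13201 reads) and 54.2 RPM in IV 20% O2 oocytes (2214 reads), a log2 difference of 0.87 (interval 0.82 to 0.95). Smarca2 was also higher with median-ratio scaling, at 0.56. The share of Smarca4 in the pair per kb of exon was 79.1% in IV 20% O2 oocytes and 69.1% in IV 5% O2 oocytes. Per kb of the transcript with the longest coding sequence it was 61.3% and 48.2%, so which motor led in IV 5% O2 oocytes depends on the length used, and the log2 change of the ratio was -0.77 (interval -0.85 to -0.68). Smarcc1 made up 69.3% of its pair with Smarcc2 in IV 20% O2 oocytes and 62.5% in IV 5% O2 oocytes, a log2 change of -0.44 (interval -0.58 to -0.30). In the BAF pairs, then, Smarca4, Smarcc1 and Arid1a each made up a smaller share in IV 5% O2 oocytes than in IV 20% O2 oocytes.

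In the CHD family, Chd1 made up 89.4% of its pair with Chd2 in IV 20% O2 oocytes and 92.8% in IV 5% O2 oocytes, a log2 change of 0.60 (interval 0.40 to 0.81). Of the exonic bases of Chd2, which had 9.54 and 6.73 RPM, 18.4% overlap 1810026B05Rik on the same strand (1.88 and 1.81 RPM), so its reads are less certain. Chd4 made up 98.2% and 96.0% of its pair with Chd3, which can take its place in NuRD and had 11.6 RPM in IV 5% O2 oocytes (1529 reads) and 4.23 RPM in IV 20% O2 oocytes (173 reads). That change of -1.15 (interval -1.38 to -0.92) was the largest of the 6 pairs with both partners expressed, and its interval reaches under 2-fold. Chd8 and Chd7, by contrast, moved together. Chd7, best known for its part in neural crest development, had 83.6 RPM in IV 5% O2 oocytes and 126 RPM in IV 20% O2 oocytes. Per kb of exon, Chd8 made up 50.2% of the pair in IV 5% O2 oocytes and 50.6% in IV 20% O2 oocytes. Per kb of the longest transcript its share was 59.2% and 59.6%, so the near-even split depends on the length used. The log2 change of the ratio of Chd8 to Chd7 was -0.02, with an interval of -0.09 to 0.04. Smarca1, the second ISWI motor, was almost absent, with 1 read in IV 5% O2 oocytes and 7 reads in IV 20% O2 oocytes (log2 ratio -4.50, interval -9.99 to -1.54), and Smarca5 made up nearly all of the pair, at 99.99% in IV 5% O2 oocytes and 99.88% in IV 20% O2 oocytes.

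**Figure D3:**
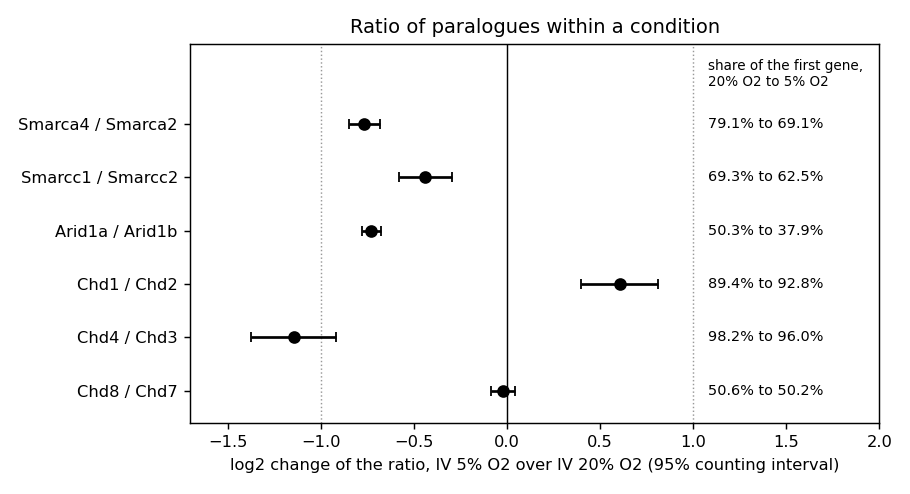
Change of the ratio in the 6 pairs of a remodeller gene and a paralogue with reads enough to plot, which leaves out Smarca5 and Smarca1 (x axis, log2 of IV 5% O2 oocytes over IV 20% O2 oocytes) with 95% counting intervals; dotted lines mark 2-fold, and the numbers give the share of the first gene in the pair per kb of exon. Of these 6 ratios, taken without a pseudocount, Chd4 to Chd3 alone passes 2-fold, at -1.15, with an interval that reaches under 2-fold. Over all pairs of genes tested with reads in both columns, 51% had a ratio at least 2-fold different. The interval of Chd8 to Chd7 holds 0.

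The other subunits of these complexes were read from 6 lists with 84 genes tested, which were chosen with earlier results of these data known. Of the 84, 12 were at least 2-fold higher in IV 5% O2 oocytes (14.3%, against 18.7% of all genes) and 4 at least 2-fold lower (4.76%, against 9.22%). Median-ratio scaling gave 6 higher and 5 lower of the 84, against 12.0% and 13.6% of all genes. Their median difference of 0.26 equalled that of all genes to 2 decimals.

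Of 22 other BAF and PBAF subunits tested, 2 were at least 2-fold higher, 1 at least 2-fold lower and 19 neither, with a median of 0.31. The shares were 9.09% and 4.55%, against 18.7% and 9.22% of all genes. Those higher were Bcl7b, a small accessory subunit (41.5 against 11.6 RPM, log2 difference 1.75), and Brd9, the bromodomain subunit of non-canonical BAF (57.0 against 23.6 RPM, 1.24). Smarcd1 was lower, with 3.48 RPM in IV 5% O2 oocytes and 10.9 RPM in IV 20% O2 oocytes (log2 difference -1.41). Under median-ratio scaling Brd9 was at 0.93, under 2-fold. Smarcd1 was at -0.91 with a pseudocount of 5 and at -0.99 after division by exonic length, also under 2-fold. Its alternative Smarcd2 was the most abundant of the list per kb, at 47.1 and 32.6 RPM per kb. Arid2 and Pbrm1, which define the PBAF form in place of Arid1a or Arid1b, differed by -0.43 and -0.13. Actl6b, the neuronal form of Actl6a, is named in the list and was not among the rows used here.

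The 9 ISWI partners tested held 1 gene at least 2-fold higher, Rsf1 (12.2 against 5.31 RPM, log2 difference 1.06), and none at least 2-fold lower (11.1% and 0%, against 18.7% and 9.22% of all genes). Rsf1 was under 2-fold with median-ratio scaling (0.78), quantile normalization (0.89) and a pseudocount of 5 (0.74), which left 0 such genes. Cecr2, a bromodomain partner of ISWI motors, had 272 RPM in IV 5% O2 oocytes and 347 RPM in IV 20% O2 oocytes (log2 difference -0.35). Baz1b, the partner of Smarca5 in the WICH complex, went against it at 0.90, with 276 and 148 RPM. Pole3, a histone-fold protein shared with DNA polymerase epsilon, had the highest level per kb of the list (49.2 and 43.6 RPM per kb).

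Among 7 other motor genes grouped by a Chd name, 2 were at least 2-fold higher in IV 5% O2 oocytes, and none was at least 2-fold lower. The shares were 28.6% and 0%, against 18.7% and 9.22% of all genes. Those higher were Chd1l (43.2 against 15.3 RPM, log2 difference 1.44) and Chd3 (1.26). The median of the 7 was 0.67. Chd3 was just under 2-fold with median-ratio scaling, at 0.99. Averaged over the conditions, Chd9 had the highest level per kb of this list, with 8.74 and 8.99 RPM per kb, and differed by -0.04. Chd1l was above it in IV 5% O2 oocytes (10.0 RPM per kb) and Chd7 in IV 20% O2 oocytes (9.11 RPM per kb).

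Of 12 NuRD partners of Chd4, 1 was at least 2-fold higher and 1 at least 2-fold lower (8.33% each, against 18.7% and 9.22% of all genes), and the median was 0.26. Mbd2, which binds methylated DNA, had 13.2 RPM in IV 5% O2 oocytes and 3.69 RPM in IV 20% O2 oocytes (log2 difference 1.60). Cdk2ap1, a small NuRD subunit, showed the widest gap of all the lists on log2(RPM + 1), with 0.628 RPM in IV 5% O2 oocytes (83 reads) and 9.44 RPM in IV 20% O2 oocytes (386 reads). Its log2 difference was -2.68, and the interval of the ratio without a pseudocount was -4.27 to -3.57. With a pseudocount of 5 the difference was -1.36, smaller in size than those of Vps72 (1.74) and Bcl7b (1.48), and with one of 0.1 it was -3.71. Rbbp7, a histone-binding subunit, had the highest level of this list, at 299 and 225 RPM per kb. Of the paired deacetylases, Hdac2 had 22.1 and 13.0 RPM per kb and Hdac1 had 1.78 and 2.41 RPM per kb.

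The 19 other subunits of the INO80, SRCAP and EP400 complexes held 5 genes at least 2-fold higher (26.3%, against 18.7% of all genes) and 2 at least 2-fold lower (10.5%, against 9.22%), and their median was 0.36. The 2 lower genes were both motors that exchange H2A.Z into nucleosomes. Srcap had 37.1 RPM in IV 5% O2 oocytes and 92.5 RPM in IV 20% O2 oocytes (log2 difference -1.29), and Ep400 had 291 and 663 RPM (-1.18). The higher genes were Vps72, a chaperone for H2A.Z (86.0 against 22.3 RPM, 1.90), Yeats4 (1.45), Ino80b (1.39), the helicase-like Ruvbl2 (159 against 63.8 RPM, 1.31) and Ino80e (1.04). Srcap and Ep400 have transcripts of 8 kb or more, whereas Vps72 and Ruvbl2 are in the class of 2 to 4 kb. Relative to their own length class, Srcap was at -1.32 and Vps72 at 1.56, but Ruvbl2 (0.96) and Ino80e (0.78) were under 2-fold, which left 3 higher genes. Median-ratio scaling gave 3 higher and 3 lower of the 19, against 12.0% and 13.6% of all genes.

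**Figure D4:**
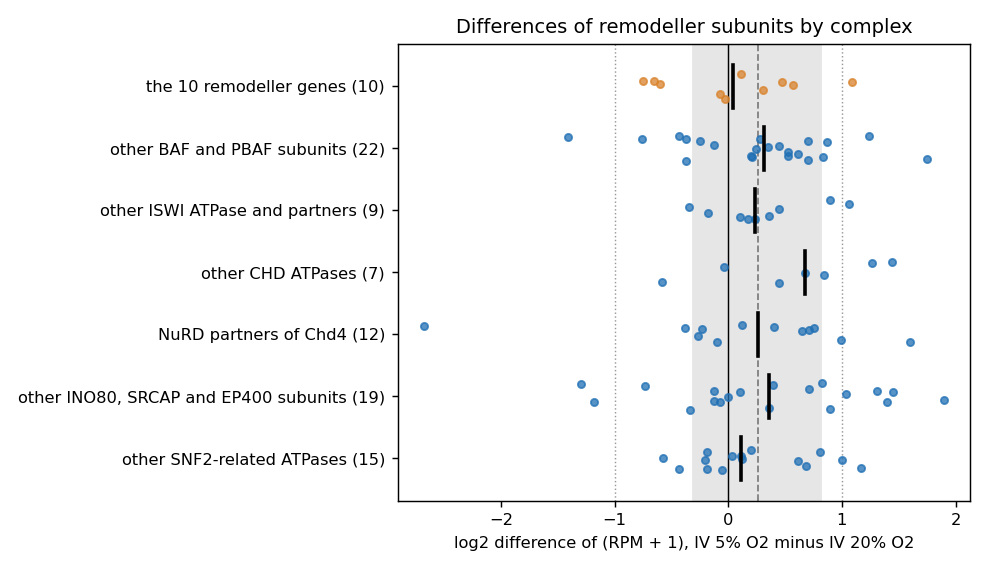
Difference of each gene between IV 5% O2 oocytes and IV 20% O2 oocytes on the log2(RPM + 1) scale (x axis) for the 10 remodeller genes (orange) and the 6 lists of other subunits (blue), with the number of genes tested in brackets and the median of each list as a black bar. The grey band and dashed line give the quartiles and the median (0.26) of all genes tested; Cdk2ap1 lies farthest left at -2.68 and Vps72 farthest right at 1.90.

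Promoter windows of 300 bases around a transcript start were on hand in RefSeq GRCm38.p6 for 9 of the 10 genes, 11 windows in all; Chd1 had no entry. These windows were rich in CpG dinucleotides, with 17 to 42 each and a median of 32, against a median of 7 over all 32851 windows, of which 31.4% hold 17 or more. The letters ACGTG, the core bound by hypoxia-inducible factors, occurred on either strand in 1 of the 11 windows, that of Smarcb1, and in 19.6% of all windows. Such a match is a description of the letters only.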

How the data were processed

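Per the labels and the study's methods, the authors trimmed the RNA-seq reads with Trim Galore, aligned them to GRCm38 (mm10) with TopHat2 2.0.9, merged reads over the exons of transcripts in SeqMonk, with an annotation made for oocytes and a stated correction for feature length, and deposited log2 values, 1 column per condition; the way of pooling the 2 libraries per condition is not given in the sources used here, nor is the use of strand in counting. The values are named as RPKM, but 98.4% (IV 5% O2) and 99.8% (IV 20% O2) of the linear values are within 0.01 of a whole multiple of 1 step, the same for all genes, so they were taken as log2 RPM without a length correction, against that statement. A gene listed at 0.9 of a read was set to 0. The table also has 1 value column of no mapped sample, which was not used. The RRBS and PBAT libraries are not analysed here.

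For a repeated name the row of highest mean was used. Genes that averaged 1 RPM or more were compared on log2(RPM + 1). Ratios of reads have Clopper-Pearson intervals at 95%, levels exact Poisson intervals, and ratios of ratios intervals from the standard error of the log odds, which were checked on simulated reads. Exonic and transcript lengths are from GENCODE M21 (GRCm38), in which 16414 of 16591 rows matched by coordinates; repeated windows were taken every 10 bases and sought in the 22 chromosome sequences. Limma, planned for values per library, could not be run on pooled columns, and counts of genes at least 2-fold apart stood in for it. The members, lists, pairs and tests were chosen with earlier results of these data known. Genes named from a list were those with the largest rise, the largest fall and the highest level per kb averaged over the columns; Btaf1, Brd9, Arid2, Pbrm1, Baz1b, Hdac1, Hdac2, Ep400, Yeats4, Ino80b, Ino80e, Atrx, Hells and Ttf2 were added after their values were seen. The alternatives were a pseudocount of 0.1 or 5, a filter at 5 RPM or none, scaling by the median ratio or by quantiles, division by exonic length, sums over rows, other lengths for the pairs and, added later, centring on the class of transcript length. The software was Python 3.11.15 with scipy 1.17.1, pandas 2.3.3, numpy 2.4.6, matplotlib 3.10.9 and numba 0.67.0.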

Additional observations from a re-analysis of the deposited data

How the results depend on the processing

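No paired analysis was possible because each column holds pooled libraries with no replicate number, and for the same reason leaving out a replicate was not run. With median-ratio scaling, 0 in place of 1 of the 10 remodeller genes were at least 2-fold higher and 1 in place of 0, Arid1a, was at least 2-fold lower (-1.07). Smarca4 (-0.20), Chd4 (-0.0155) and Pole3 (-0.15) reversed, and 6 in place of 12 genes of the lists were at least 2-fold higher. One factor per column accounts for this. With quantile normalization, 0 of the 10 were at least 2-fold higher, and Smarca4 (-0.0760) and Pole3 (-0.0221) reversed; the cause was not tested. Division by exonic length, which enlarges the share of the pseudocount, and centring on the length class, which was added after seeing the data, each gave 0 of the 10 at least 2-fold higher, and the latter turned Pole3 to -0.0520.

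Over all genes, 2753 were at least 2-fold higher and 1356 lower. The higher count was 1758 under median-ratio scaling, 1800 under quantile normalization, 1202 with a pseudocount of 5, 1691 with the filter at 5 RPM, 1609 after division by length and 1737 after centring; the lower count was 706 with a pseudocount of 5 and 899 after division by length, but 2003 under median-ratio scaling, 1830 under quantile normalization and 1915 after centring, each above the higher count. The changes of the paralogue ratios are the same with any length, but the shares are not, and the length used decided which gene led for Smarca4 in IV 5% O2 and for Arid1a in IV 20% O2. The other values of the 10 genes kept their direction.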

Other observations

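Motors related to remodellers but outside the complexes above ranged from -0.58 to 1.17 on the log2(RPM + 1) scale. Of 15 such genes tested, 1 was at least 2-fold higher in IV 5% O2 oocytes (against 18.7% of all genes) and 0 at least 2-fold lower (against 9.22%), with a median log2 difference of 0.11 against 0.26 for all genes. The one past 2-fold was Hltf, a translocase of replication repair, with 37.3 RPM in IV 5% O2 oocytes and 16.0 RPM in IV 20% O2 oocytes (log2 difference 1.17, interval 1.10 to 1.34). Hltf was under 2-fold with median-ratio scaling (0.86), division by exonic length (0.97) and centring on its length class (0.91), each of which left 0 such genes. Ttf2, which releases RNA polymerase from DNA, lay just under 2-fold as deposited at 0.999. Rad54l2 was the lowest, with 52.7 and 79.2 RPM (-0.58). Averaged over the conditions, Ercc6l, a motor of mitotic chromosomes, had the highest level per kb of exon, at 24.5 and 28.0 RPM per kb, close to Btaf1 at 27.2 and 25.1 RPM per kb. Atrx, which works at heterochromatin and deposits the histone variant H3.3, had 369 and 229 RPM (0.69), whereas Hells, a motor needed for DNA methylation at repeats, had 88.1 and 91.6 RPM (-0.06, interval -0.11 to -0.00370). All values are from 1 pooled column per condition and have no replicate check.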
